A study of Rattus norvegicus with 3 samples.

Results

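Agonist-selected thymocytes are developing T cells that receive a strong signal through the T cell receptor in the thymus and survive it. In the thymus of the Lewis rat, a common inbred laboratory strain, 128 of 8546 annotated thymocytes (1.5%, exact Clopper-Pearson 95% interval 1.25 to 1.78) carried one of the deposited labels AgoSel1 (70 cells, 0.819%) or AgoSel2 (58 cells, 0.679%), and all 128 were taken as members. The series held 3 samples from thymi of rats aged 8 weeks, with no strain, genotype or treatment compared. These were a droplet library of thymocytes released with collagenase D, a droplet library of stromal cells sorted as CD45-negative, and 1 spatial section of thymus read on an array. Each was a single sample, so no result has a replicate check, no test was possible, and the intervals given cover counting error only. The labels themselves had been given from the expression of these same cells, so every comparison between labels below is a description of how the labelled cells read.

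Most thymocytes whose receptor binds self peptides strongly die, which is negative selection. A minority instead enter agonist-selected lineages, among them regulatory T cells and the precursors of CD8αα intraepithelial lymphocytes of the gut. Receptor engagement switches on immediate early genes such as Nr4a1 and Egr1, and, with costimulation, the NF-kB transcription factors. The death protein Bim (Bcl2l11), the inhibitory co-receptor PD-1 (Pdcd1), the transcription factor Helios (Ikzf2) and the surface protein CD5, whose level follows the strength of receptor signals, are commonly used to recognise such cells.

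The 128 cells held 1139587 unique molecular identifiers (UMIs, 1 per captured RNA molecule). AgoSel2 cells were deeper than AgoSel1 cells, with a median of 11327.5 UMIs (range 3158 to 29520) against 6077 (1114 to 15963). The median mitochondrial share was 2.81% in AgoSel2 and 4.06% in AgoSel1. In the authors' own clustering, 38 AgoSel1 cells lay in the cluster Early SP and 32 in Mature SP (SP, single-positive), while 10 AgoSel2 cells lay in Early SP and 48 in Mature SP. The 2 labels thus differ in cluster make-up and in depth, and neither can be told apart from the label in a single library. No barcode of the 128 was among the 38 that the thymocyte and stromal libraries shared, and no stromal cell carried either label.

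Levels are given as UMIs of a gene per 1000000 UMIs of a label (CPM), with exact Poisson 95% intervals. They do not compare genes with each other. Of the 3 marker genes given for the label, 2 were at their highest there among the 21 labels with at least 20 cells. Bcl2l11 stood at 201 CPM (162 to 248) in AgoSel1 and 94.7 CPM (73.2 to 120) in AgoSel2, the highest and the next highest level, with Pre-Treg next at 85.0 CPM (60.2 to 117) and overlapping AgoSel2. Ikzf2 stood at 2589 CPM (2471 to 2711) in AgoSel2 and 2150 CPM (2016 to 2291) in AgoSel1, above Pre-Treg (1635 CPM), Treg (1449 CPM) and DP-sig (1087 CPM), with no overlap between these 3 and either AgoSel label. The remaining marker went against the label. Cd5 was highest in DP-sig at 363 CPM (331 to 398), and stood at 190 CPM (151 to 235) in AgoSel1 and 97.5 CPM in AgoSel2, ranks 5 and 15 of the 21 labels.

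**Figure D1:**
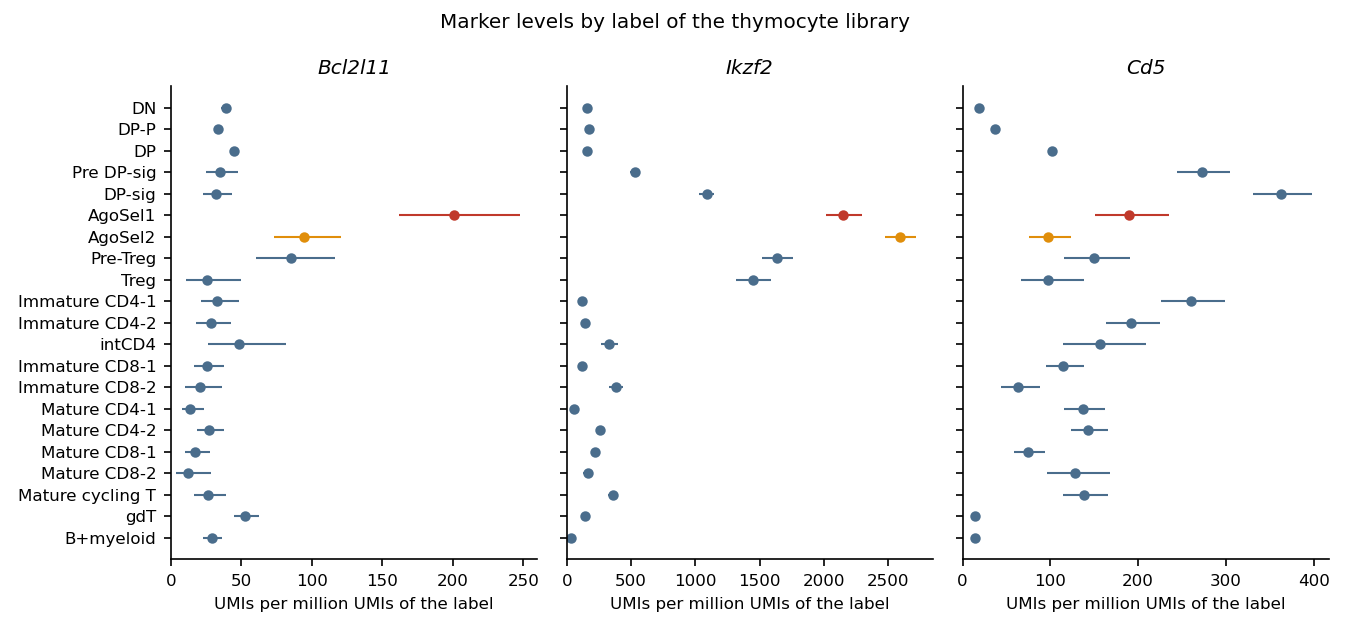
Levels of Cd5, Bcl2l11 and Ikzf2 (CPM of the label) in the 21 labels with at least 20 cells. Points are labels and bars exact Poisson 95% intervals of counting error. Bcl2l11 and Ikzf2 are highest in the 2 AgoSel labels, whereas Cd5 is highest in DP-sig.

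3 groups of cells served as references, each from the same library: 295 cells labelled DP-sig (a double-positive label whose suffix the files do not spell out; median 4010 UMIs), 236 cells of the labels Immature CD4-1 and Immature CD4-2 (median 6398 UMIs), and 92 cells labelled Pre-Treg or Treg (median 7530.5 UMIs). A gene was compared where both groups together held at least 30 UMIs, and is counted as higher or lower at a ratio of 2-fold or more. With 1 library per group this is a fold limit, not a significance call. A count below 3 UMIs entered the ratio as 3, and ratios carry exact conditional 95% intervals.

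Against DP-sig, most compared genes of the NF-kB list (10 of 15) and of the regulatory T cell list (5 of 6) were at least 2-fold higher in AgoSel cells. The list of TNF receptor family and costimulation genes and the migration list held genes on both sides. Each of these lists held less RNA in sum, 3497 against 4624 CPM and 1150.4 against 1705 CPM. Ccr9, Cd5, Cd200 and the transcription factors Satb1, Tox and Gata3 were lower. Of 7524 genes compared, 402 (5.34%) were at least 2-fold higher and 503 (6.69%) at least 2-fold lower. The median ratio over all of them was 0.897 (log2 -0.16). When the groups were scaled by edgeR's trimmed mean of M values (TMM), which multiplies each ratio here by 1.12 and sets that median near 1, the split became 562 higher and 318 lower.

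In the NF-kB list, 10 of 15 compared genes were at least 2-fold higher than in DP-sig and 0 lower, and the median ratio was 3.01. All subunits but one were higher: Nfkb1, which encodes p105 and p50, was at 151 CPM in DP-sig, 936 in AgoSel1 and 698 in AgoSel2 (5.25-fold for both AgoSel labels together, 4.49 to 6.16), Nfkb2 was 6.41-fold higher (3.12 to 14.8), Rel 3.77-fold and Relb 3.01-fold. Rela, the p65 subunit, was not (19 UMIs against 35; ratio 0.614, 0.332 to 1.10). The IκB genes and other regulators in the list differed by member. Nfkbia, which encodes IκBα, was at 55.1 CPM in DP-sig, 366 in AgoSel1 and 208 in AgoSel2. The nuclear IκB genes Nfkbid and Nfkbiz were 5.12- and 5.02-fold higher, and Birc3, an inhibitor of apoptosis, 25.3-fold (8.28 to 126; 67 UMIs against 3). Nfkbib was 2.02-fold higher, or 1.92-fold without the cell richest in it, which held 3 of its 50 UMIs. Tnfaip3, which encodes the inhibitor A20, had a ratio of 1.24 (0.865 to 1.79) and its partner Tnip1 1.73, both under the 2-fold limit.

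The promoters of the NF-kB genes are shown because 10 of 15 compared members were higher and such genes are known targets of their own pathway. A window from 250 bases before to 50 after the annotated start was in RefSeq's table (GRCr8) for 15 of the 18 listed genes. These are not the same 15 as the compared genes, since Relb and Birc3 were compared and had no window. The letters GGG, any 3 bases and TTCC, a core of the κB site, were searched on both strands, and 9 of these 15 windows (60.0%) held them, against 1796 of 33469 rat promoter windows (5.37%) and 2 of 17 windows in the receptor signal list. An AP-1 core, TGANTCA, was in 4 of the 15, in 7.33% of all windows and in 0 of the 17. A match is a run of letters, not evidence of binding. A match did not go with the size of the ratio in every gene: Nfkbid, 5.12-fold higher, had none in its window, and Tnfaip3, at a ratio of 1.24, had 3. The windows of 4 genes that were at least 4-fold higher and held a match follow, chosen for showing the letters, read 5′ to 3′ along the gene's strand, with the κB letters in capitals. Nfkb1 lies at chr2:226805413-226805712 (- strand), and the match begins at position 3 from the start. Nfkb2 lies at chr1:255108124-255108423 (+ strand), with the match at position -20. Nfkbia lies at chr6:78597023-78597322 (- strand), with the match, read on the opposite strand, at position -31. Nfkbiz lies at chr11:58251471-58251770 (+ strand), with the match at position -13.
Nfkb1: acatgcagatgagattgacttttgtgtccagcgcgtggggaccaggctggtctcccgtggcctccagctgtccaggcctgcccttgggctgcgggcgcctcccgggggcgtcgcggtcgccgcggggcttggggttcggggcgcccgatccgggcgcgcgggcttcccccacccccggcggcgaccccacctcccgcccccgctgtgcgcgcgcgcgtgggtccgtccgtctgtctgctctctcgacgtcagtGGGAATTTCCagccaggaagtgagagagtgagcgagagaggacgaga
Nfkb2: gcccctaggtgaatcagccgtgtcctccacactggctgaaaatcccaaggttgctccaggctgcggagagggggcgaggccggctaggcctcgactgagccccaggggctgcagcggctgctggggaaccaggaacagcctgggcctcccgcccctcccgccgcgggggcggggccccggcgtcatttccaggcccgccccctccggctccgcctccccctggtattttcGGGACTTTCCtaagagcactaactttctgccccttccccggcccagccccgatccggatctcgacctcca
Nfkbia: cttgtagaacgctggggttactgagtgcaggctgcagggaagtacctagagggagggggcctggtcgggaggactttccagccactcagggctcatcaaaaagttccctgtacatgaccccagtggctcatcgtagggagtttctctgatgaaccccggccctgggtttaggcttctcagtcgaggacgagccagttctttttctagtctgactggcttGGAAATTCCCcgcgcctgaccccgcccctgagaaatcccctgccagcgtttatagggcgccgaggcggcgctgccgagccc
Nfkbiz: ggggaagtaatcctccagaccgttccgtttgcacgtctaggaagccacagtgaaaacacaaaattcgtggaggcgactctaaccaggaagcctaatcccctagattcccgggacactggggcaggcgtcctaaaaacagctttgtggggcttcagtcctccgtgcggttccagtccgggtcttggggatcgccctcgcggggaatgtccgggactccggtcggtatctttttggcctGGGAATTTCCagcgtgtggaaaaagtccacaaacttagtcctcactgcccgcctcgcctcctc
The capitals are the same GGGAATTTCC in Nfkb1 and Nfkbiz. In Nfkbia they read GGAAATTCCC, which is the same GGGAATTTCC on the opposite strand. They read GGGACTTTCC in Nfkb2.

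Receptors of the TNF family carry costimulation into NF-kB. In the list that holds them together with other costimulation genes, 5 of 12 compared genes were at least 2-fold higher than in DP-sig and 2 lower. Tnfrsf9, which encodes 4-1BB, had the highest ratio of all genes that also had UMIs in at least 15% of AgoSel cells: 6.21 CPM in DP-sig, 384 in AgoSel1 and 449 in AgoSel2 (68.3-fold, 34.4 to 159). It had a UMI in 22 of 70 AgoSel1 and 42 of 58 AgoSel2 cells, against 7 of 295 DP-sig cells and 8 of 5202 cells of the label DP (median 3205.5 UMIs), where it should be near absent. With every cell thinned to 1000 UMIs the shares were 14.3% in AgoSel1, 22.4% in AgoSel2 and 1.36% in DP-sig. Tnfrsf18, which encodes GITR, was at 20.2 CPM in DP-sig, 206 in AgoSel1 and 178 in AgoSel2. Tnfrsf4 (OX40) had 76 UMIs against 2. The 2 lower genes, Cd28 and Cd6, are in this list but are not TNF receptors, and had ratios of 0.473 and 0.479. With TMM scaling neither was 2-fold lower and the list stood at 5 higher and 0 lower.

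Receptor signal genes, by contrast, split against DP-sig: 5 of 19 were at least 2-fold higher, 2 lower, and the median ratio was 1.13. Nr4a3, an orphan nuclear receptor induced by receptor signals, was 2.99-fold higher (2.37 to 3.80), Myc 9.72-fold and Tagap 8.25-fold. Egr1 (ratio 0.799, 0.595 to 1.07) and the early activation antigen Cd69 (1.13, 0.941 to 1.35) had intervals that include 1. Cd5 (0.367) and Fos (0.462) were the 2 lower ones. With TMM scaling the list had 7 higher and 1 lower, and Fos was no longer 2-fold lower. Nr4a1 differed between the AgoSel labels more than between AgoSel2 and DP-sig: 1117 CPM (1021 to 1220) in AgoSel1, 331 CPM (290 to 377) in AgoSel2 and 338 CPM (307 to 371) in DP-sig.

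**Figure D2:**
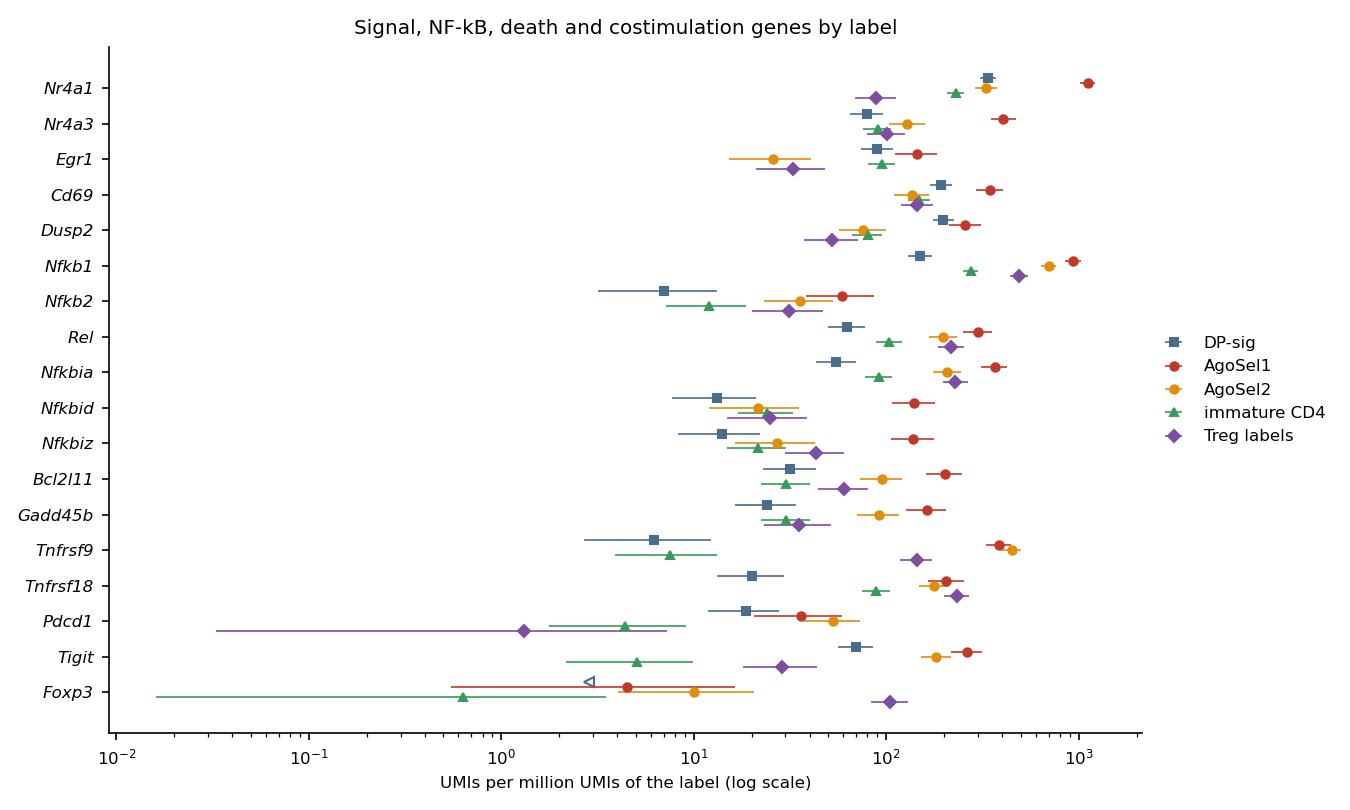
Levels of signal, NF-kB, death, costimulation and inhibitory genes (CPM of the label, log scale) in DP-sig, AgoSel1, AgoSel2, the immature CD4 labels and the Treg labels. Bars are exact Poisson 95% intervals, and the open triangle is the upper limit for Foxp3 in DP-sig, where no UMI was found. Nr4a1 and Nfkbid set AgoSel1 apart from the other groups, while Tnfrsf9 is high in both AgoSel labels.

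Most death and survival genes were less than 2-fold apart from DP-sig. Of 11 death genes 2 were higher and 1 lower (0 with TMM scaling), with a median ratio of 1.19, and of 8 survival genes 2 were higher and 0 lower, with a median of 1.44. The higher death genes were Bcl2l11 (4.27-fold, 3.01 to 6.19) and the stress gene Gadd45b (4.96-fold, 3.34 to 7.58). The higher survival genes were Il7r (5.65-fold, 2.73 to 13.2) and the anti-apoptotic Bcl2a1, which stood at 25.6 CPM in DP-sig, 224 in AgoSel1 and 186 in AgoSel2. The Il7r ratio is for both AgoSel labels together, and most of its UMIs lay in Mature SP cells of AgoSel1. Of 9 inhibitory receptors and attenuators, 3 were higher (5 with TMM scaling) and 2 lower. Tigit was at 69.9 CPM in DP-sig, 262 in AgoSel1 and 182 in AgoSel2, and Pdcd1 at 18.6, 36.2 and 53.1 CPM. Cd200 went the other way, at 541 CPM in DP-sig, 278 in AgoSel1 and 129 in AgoSel2.

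Over the migration list 7 of 15 genes were higher than in DP-sig and 5 lower (4 with TMM scaling). The egress receptor S1pr1 had 66 UMIs in AgoSel cells against 4 (18.7-fold). The medullary homing receptor Ccr7 was 12.1-fold higher (32 UMIs against 3), and the transcription factor Klf2, which drives S1pr1, 5.82-fold. Ccr9, a chemokine receptor of cortical and gut-homing thymocytes, was at 577 CPM in DP-sig, 224 in AgoSel1 and 54.5 in AgoSel2. Of 20 lineage factors 6 were lower (5 with TMM scaling) and 4 higher: Satb1 had a ratio of 0.411, Tox 0.390 and Gata3 0.385. The median ratio of that list was 0.677 in CPM and 1.38 in UMIs per cell, against 0.897 and 1.83 over all compared genes. Other leading genes on the higher side were the cytotoxic granule protein gene Ctsw (213 UMIs against 4), the cyclin Ccnd2 (96 against 2) and Mir155hg, the host transcript of miR-155 (41 against 1). On the lower side were Ssx2ip (76.3 against 696 CPM) and Cd38 (29.8 against 132 CPM).

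Genes known from precursors of gut intraepithelial lymphocytes were mixed. Against DP-sig, 4 of 9 compared were at least 2-fold higher and 2 lower, against immature CD4 3 and 1, and against the Treg labels 3 and 0. Pdcd1 and Il2rb were at their highest among the 21 labels in AgoSel2, at 53.1 and 135 CPM, and the gut integrin chain Itgae was at its highest in AgoSel1 (47.5 CPM, 3.27-fold above DP-sig for both labels together, 1.88 to 5.93). Ccr9 and Itga4 (156 CPM in AgoSel1, 169 in AgoSel2, 494 in DP-sig) were the 2 lower ones. Cd8a was at 213 CPM in AgoSel1 and 211 in AgoSel2. Tbx21, which encodes T-bet, had 1 and 3 UMIs, too few to compare.

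Of the regulatory T cell list, 5 of 6 compared genes were at least 2-fold higher than in DP-sig and 0 lower, with a median ratio of 6.64 and summed levels of 905 against 114 CPM. These 5 were the receptors Tnfrsf9, Tnfrsf4 and Tnfrsf18, which the TNF receptor list also holds, and the IL-2 receptor chains Il2rb (3.94-fold, 2.66 to 5.99) and Il2ra (2.26-fold, or 1.87-fold without its richest cell). Nrp1 was the gene that did not pass (0.631, 0.366 to 1.06). Foxp3, with 9 UMIs against 0, was below the minimum for comparison. Of 13 mature T cell genes, 7 were higher, among them Klf2, Ccr7 and S1pr1 of the migration list, and 1 lower (0 with TMM scaling). In the remaining lists, 1 of 11 genes of the double-positive programme was higher and 2 lower, and 0 of 13 genes of the receptor complex and kinases were higher and 1 lower (0 with TMM scaling). Of 5 innate-like T cell genes compared, 3 were higher (Plac8, Xcl1 and Zbtb16) and 2 lower, among them Gata3. Zbtb16 had UMIs in 0 of 70 AgoSel1 and 3 of 58 AgoSel2 cells. Xcl1 had them in 3 and 12 cells, and most of its UMIs lay in 1 cell. Of 4 cell cycle genes 1 was higher (Mcm2).

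Against the immature CD4 labels, the receptor signal, NF-kB, inhibitory and regulatory T cell lists had median ratios of 1.65, 2.29, 1.73 and 2.32 and held 0 genes at least 2-fold lower. Of 7744 genes compared, 331 (4.27%) were at least 2-fold higher and 316 (4.08%) lower. Receptor signal genes had 8 of 20 higher, among them Nr4a1 (2.77-fold, 2.44 to 3.15), Nr4a3 (2.62-fold) and Dusp5 (4.23-fold). NF-kB genes had 8 of 15 higher, with Nfkb1 at 2.88-fold (2.56 to 3.23). Inhibitory genes had 5 of 11 higher. Tigit stood out, with 243 UMIs against 8 (42.2-fold, 21.1 to 98.9), and Pdcd1 had 53 against 7. Ikzf2 was 18.6-fold higher (16.1 to 21.5), and Il2rb, the shared β chain of the IL-2 and IL-15 receptors, had 115 UMIs against 5. Fas, the death receptor, was 2.52-fold higher, while its ligand Faslg had 3 UMIs against 39.

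Of 21 lineage factors, 6 were lower than in immature CD4 cells and 3 higher. Zbtb7b, which encodes the CD4 lineage factor ThPOK, had 8 UMIs against 44 (ratio 0.253, 0.103 to 0.542), and Cd4 itself had a ratio of 0.434 (0.359 to 0.521). Tox2 (0.145), Id2 (0.253) and Satb1 (0.353) were lower as well. Il7r, the receptor for the survival cytokine IL-7, had 45 UMIs, most of them in AgoSel1, against 289 (0.216, 0.154 to 0.297). Bcl2, which IL-7 sustains, had a ratio of 0.445. The 13 compared genes of the T cell receptor complex and its kinases held none at least 2-fold apart.

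Against the Treg labels, AgoSel cells stood close in the NF-kB list, higher in receptor signal genes and lower in Foxp3 and most regulatory T cell genes. Of 6782 genes compared, 594 (8.76%) were at least 2-fold higher and 287 (4.23%) lower. The median ratio over all genes was 1.12 (log2 0.16), and TMM scaling turned the split into 390 and 383. In the NF-kB list 1 of 15 genes was higher (Nfkbid, 2.72-fold) and 1 lower (Tnip1, 0.461), with a median ratio of 1.11. Foxp3, the defining factor of regulatory T cells, had 2 UMIs in AgoSel1, 7 in AgoSel2 and 80 in the Treg labels (ratio 0.0754, 0.0333 to 0.150). It was seen in 2 of 70, 2 of 58 and 25 of 92 cells, against 10 of 5202 DP cells. Il2ra (0.309), Ctla4 (0.248) and Ikzf4, which encodes Eos (0.239), were lower as well, so that 5 of 9 regulatory T cell genes were lower and 2 higher (without their richest cells, Tnfrsf4 at 0.551 and Il2rb at 1.91 were in neither). The integrin Itgb8 had 0 UMIs against 77, at least 38.3-fold lower with 3 UMIs as the floor of the AgoSel cells together, and Maf 12 against 118.

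Receptor signal genes were higher than in the Treg labels, with 8 of 18 at least 2-fold higher, 0 lower and a median ratio of 1.68. With TMM scaling 6 of 18 were. Nr4a1 was 7.15-fold higher (5.57 to 9.30), while Egr1 (2.20-fold), Nr4a2 (2.77) and Spry1 (2.16) dropped below 2-fold without their single richest cell (1.94, 1.94 and 1.58). Tigit was 7.40-fold higher (4.78 to 12.0), Pdcd1 had 53 UMIs against 1, and Pmaip1, which encodes the death protein Noxa, was 4.85-fold higher (2.91 to 8.59). Gpc5, a glypican, had 575 UMIs against 0, at least 128-fold higher, though 168 of the 575 lay in 1 cell and the bound was 92.2-fold without it. All 13 compared mature T cell genes were lower than in the Treg labels, 8 of them at least 2-fold. Among these 8 were Gimap4 (0.338) and Il7r (0.220, with most of its AgoSel UMIs in AgoSel1). This order, above DP-sig and below the Treg labels, was seen for Klf2 and Ccr7 alike.

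The B cell gene Cd79a moved with part of these comparisons. It had 38 UMIs in 7 AgoSel1 cells and 37 in 10 AgoSel2 cells, all in Mature SP, against 0 of 295 DP-sig cells, 3 of 5202 DP cells and 51 of 92 cells of the Treg labels. Cd79b and Ms4a1 were at 0 in all 128 cells, and 3 (AgoSel1) and 6 (AgoSel2) of the 8 listed B cell markers were at 0. The part of Cd79a-bearing cells in the differences was not tested. Of 17 myeloid and dendritic markers 12 and 10 were at 0, among them Csf1r, Itgax, Cd68 and C1qa. Their summed levels were 49.7 and 97.5 CPM, against 31.0 CPM in DP-sig and 31473 CPM in the label B+myeloid. Of 2 compared genes of that list, Ccr7 among them, 2 were at least 2-fold higher than in DP-sig. In AgoSel2 7 cells held 3 or more UMIs of the list, with up to 13 in a cell, and in AgoSel1 0 cells did. The erythroid list had 0 UMIs and 1 UMI, and of 12 stromal markers 11 were at 0, with Pecam1 at 12 and 13 UMIs. The γδ T and NK list stood at 20.3 and 45.9 CPM, against 36.5 CPM in DP-sig. In AgoSel2 6 cells held 3 or more UMIs of that list, with up to 4 in a cell, and in AgoSel1 and DP-sig 0 cells did. The part of these cells in the differences was not tested.

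Between the 2 labels, AgoSel1 had the higher CPM for 9 of 17 receptor signal genes, 5 of 9 genes of the double-positive programme and 7 of 18 lineage factors, each by at least 2-fold. AgoSel2 was at least 2-fold higher for 1, 0 and 1 of these, and for 2 of 5 regulatory T cell genes and 2 of 4 innate-like T cell genes, where AgoSel1 was for none (Il2ra, 1 of the 2 regulatory T cell genes, was at 0.647 without its richest cell). In UMIs per cell AgoSel1 was at least 2-fold higher for 2 receptor signal genes, 0 of the double-positive programme and 0 lineage factors, and AgoSel2 for 1, 0 and 2. Over all compared genes that scaling gave 30 (0.559%) higher in AgoSel1 and 2192 (40.9%) higher in AgoSel2. Of 5363 genes compared, 316 (5.89%) were at least 2-fold higher in AgoSel1 and 256 (4.77%) at least 2-fold higher in AgoSel2. With mitochondrial, ribosomal protein and haemoglobin genes left out of the totals, the split was 231 and 331. Ribosomal protein genes took 22.2% of AgoSel1 UMIs and 28.3% of AgoSel2 UMIs.

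Of 17 receptor signal genes, 9 were at least 2-fold higher in AgoSel1 and 1, Myc, in AgoSel2, with a median ratio of 2.06 (7 and 1 with TMM scaling). AgoSel1 had the highest level of all 21 labels for 10 of the 24 listed signal genes, and AgoSel2 for 2. Nr4a1 was 3.37-fold higher in AgoSel1 (2.88 to 3.96), Nr4a3 3.15-fold (2.43 to 4.11), Egr1 5.61-fold (3.28 to 10.1) and Dusp2, a phosphatase that dampens MAP kinases, 3.39-fold. Within the Early SP cluster alone Nr4a1 stood 3.56-fold higher in AgoSel1 and within Mature SP 1.86-fold. Counted as UMIs per cell rather than CPM, the difference shrank, since AgoSel2 cells were deeper. Nr4a1 was then 1.77-fold higher in AgoSel1, 10 of the 17 genes were above a ratio of 1 and 2 were at least 2-fold higher. The list median was 1.08 with that scaling, against 0.552 over all compared genes. With all cells thinned to 1000 UMIs, Nr4a1 had a UMI in 52.9% of AgoSel1 and 22.4% of AgoSel2 cells (74.3% and 67.2% unthinned), with 1.90% in DP cells.

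The NF-kB list separated by member. Its nuclear IκB genes Nfkbid (6.52-fold, 3.66 to 12.3) and Nfkbiz (5.06-fold, 2.98 to 8.97) and the subunit Relb (2.35-fold) were at least 2-fold higher in AgoSel1. Nfkb1 was 1.34-fold higher (1.17 to 1.53) and Rel 1.51-fold, while Nfkb2 (1.64, 0.910 to 2.96) and Birc3 (1.28, 0.763 to 2.13) had intervals that include 1. In UMIs per cell 10 of the 13 compared NF-kB genes lay below a ratio of 1, and the list median was 0.743. The median over all 5363 compared genes was 0.552 with that scaling, so the list lay above it. Nfkbid remained 3.42-fold higher in AgoSel1. Nr4a1 was in 52 of all 70 AgoSel1 cells. Nfkbid was in 25 of 70 AgoSel1 cells, and 24 of those 25 also held Nr4a1. The chemokine gene Ccl4 was 6.11-fold higher in AgoSel1 (5.23 to 7.17), and 35 of its 40 positive AgoSel1 cells held Nr4a1. DP-sig, at 964 CPM of Ccl4, lay between AgoSel1 (1770 CPM) and AgoSel2 (290 CPM).

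Genes of the double-positive programme were also more abundant in AgoSel1 than in AgoSel2, with 5 of 9 at least 2-fold higher and 0 lower in CPM (0 and 0 in UMIs per cell, with 5 of 9 above a ratio of 1). In UMIs per cell the list median was 1.13, against 0.552 over all compared genes. Cd4 was 2.78-fold higher (1.98 to 3.94), whereas Cd8a was level (1.01, 0.770 to 1.31). Cd8b (2.15-fold) and Rag1 (2.21-fold) were below 2-fold without the richest cell, at 1.83 and 1.68, and both lay below a ratio of 1 within Early SP (0.819 and 0.944). Ccr9 was 4.11-fold higher in AgoSel1 (2.80 to 6.14), Satb1 2.47-fold and Runx1 2.68-fold, while Runx3, the CD8 lineage factor, leaned to AgoSel2 (0.475, or 0.557 without its richest cell). Outside the lists, Plcl1 (8.06-fold, 5.31 to 12.7) and Adam12 (6.56-fold, 4.70 to 9.33) led the genes of AgoSel1. Both also stood higher within each cluster, Plcl1 at 6.60-fold in Early SP and 4.70-fold in Mature SP. Bcl2l11 itself was 2.13-fold higher in AgoSel1 (1.53 to 2.97), or 1.68-fold without 1 cell that held 20 of its 89 UMIs.

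The leading genes of AgoSel2 included several enzymes and carriers of metabolism, for which no list was counted. Fabp5, a fatty acid carrier, had 110 UMIs against 8 (8.72-fold, 4.27 to 20.7). Srm, which makes spermidine, was 6.77-fold higher, Uck2, which salvages pyrimidines, 6.22-fold, and Shmt2, a mitochondrial enzyme of one-carbon metabolism, 5.96-fold. Bcat1, of branched amino acid metabolism, had 42 UMIs against 2, and Myc, which drives such genes, was 2.40-fold higher (1.41 to 4.28). Fabp5 and Srm were found in 31 and 30 of 58 AgoSel2 cells, 22 of them the same cells, against 7 and 5 of 70 AgoSel1 cells. Thinned to 1000 UMIs, Fabp5 was in 13.8% of AgoSel2 cells, 2.86% of AgoSel1 cells and 0.503% of DP cells. Within Mature SP alone the AgoSel1 to AgoSel2 ratio of Fabp5 was 0.113. For Srm, whose thinned counts came to 3 cells in AgoSel2 and 2 in AgoSel1, the share could not be compared at that depth. The cycle genes Mki67 and Top2a had 2 UMIs each in AgoSel2 and 1 each in AgoSel1.

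The lists nearest to surface and homing genes did not lean to AgoSel2 in CPM. Intraepithelial precursor genes had 2 of 9 higher in each label, and migration genes 2 of 13 higher in AgoSel1 and 1 in AgoSel2. In UMIs per cell the counts were 1 and 5, and 2 and 7. With that scaling 0.559% of all compared genes were at least 2-fold higher in AgoSel1 and 40.9% in AgoSel2. Single surface and secreted products were nevertheless higher in AgoSel2 in CPM. Cd44 had 44 UMIs against 2, Il2rb 94 against 21 (2.84-fold, 1.75 to 4.80), Lgals1 62 against 4, Ifitm1 68 against 4 and Cd7 46 against 1. Some of the highest folds rested on few cells. Xcl1, a chemokine, had 232 UMIs against 8, but 183 were in 1 cell, and the fold fell from 18.4 to 4.0 without it. Zbtb16, the PLZF factor of innate-like T cells, had 53 UMIs in 3 AgoSel2 cells, each of which also held Tarp, a transcript of the T cell receptor γ locus. Tarp was in 10 AgoSel2 cells and 1 AgoSel1 cell.

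**Figure D3:**
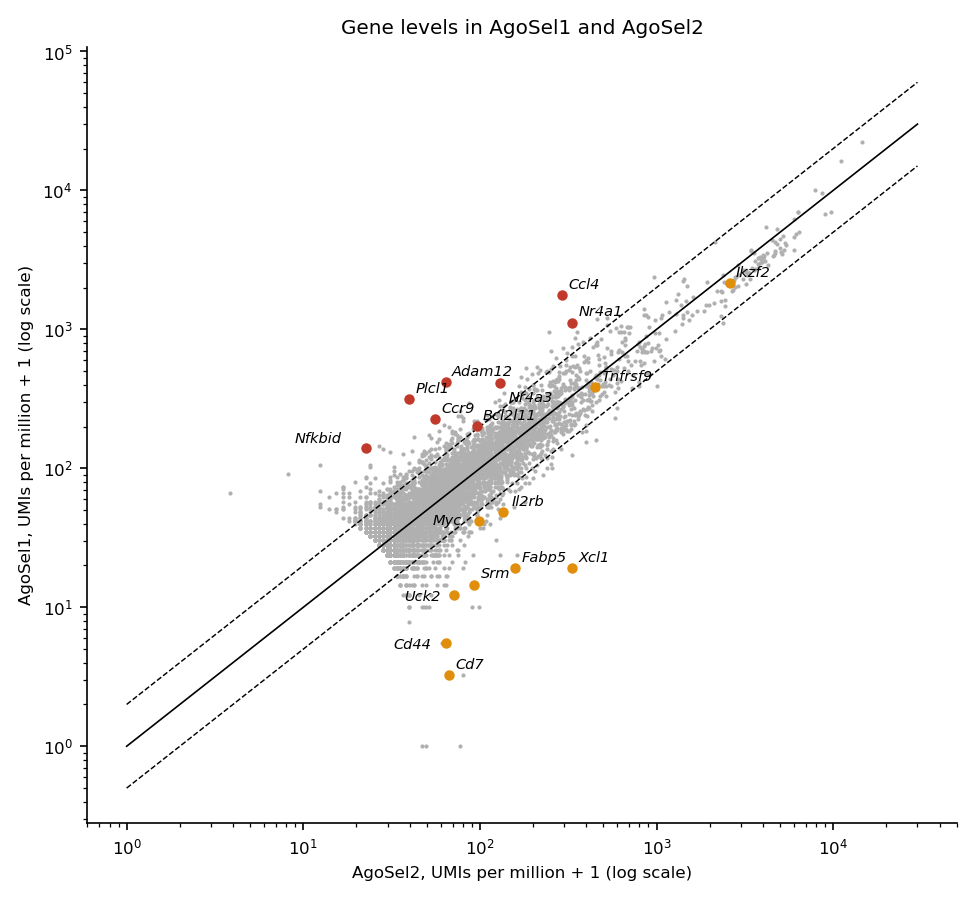
Level of each compared gene in AgoSel1 (vertical) against AgoSel2 (horizontal), in CPM + 1 on log scales. The solid line marks equal levels and the dashed lines 2-fold. Nr4a1, Nfkbid and Ccl4 lie above the upper dashed line, and Fabp5, Srm, Uck2, Cd44 and Cd7 below the lower one.

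Neither label was uniform. AgoSel1 cells in Early SP all held Nr4a1 (38 of 38 cells; 1801 CPM), and 34 of 38 held Ikzf2 (3617 CPM). AgoSel1 cells in Mature SP held Nr4a1 in 14 of 32 cells (567 CPM), with 97 of 139 UMIs in 5 cells, and Ikzf2 in 18 of 32 (971 CPM), with 194 of 238 UMIs in 5 cells. The median depth was 6975.5 UMIs in these Mature SP cells and 5108.5 in the Early SP cells, and its part in the split was not tested. Tigit followed the same split, in 21 of 38 Early SP and 3 of 32 Mature SP cells.

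Il7r, the interleukin-7 receptor gene of mature T cells, lay on the other side of the split in AgoSel1. All 40 of its UMIs (10 cells) were in Mature SP cells, none in Early SP. They made up most of the 45 Il7r UMIs of the AgoSel labels together. Since the clusters were formed from the same expression values, this describes them and tests nothing. AgoSel2 showed less of a split for Ikzf2, found in 10 of 10 Early SP cells (2537 CPM) and 46 of 48 Mature SP cells (2596 CPM). Tnfrsf9 went opposite ways in the 2 clusters: within Early SP it was at 664 CPM in AgoSel1 and 121 CPM in AgoSel2, and within Mature SP at 159 and 498 CPM. Its pooled ratio was 0.856 (0.706 to 1.04). In AgoSel2 all 42 cells with Tnfrsf9 also held Ikzf2, as did 21 of 22 in AgoSel1. With or without Tnfrsf9, Ikzf2 was in 56 of 58 AgoSel2 and 52 of 70 AgoSel1 cells.

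**Figure D4:**
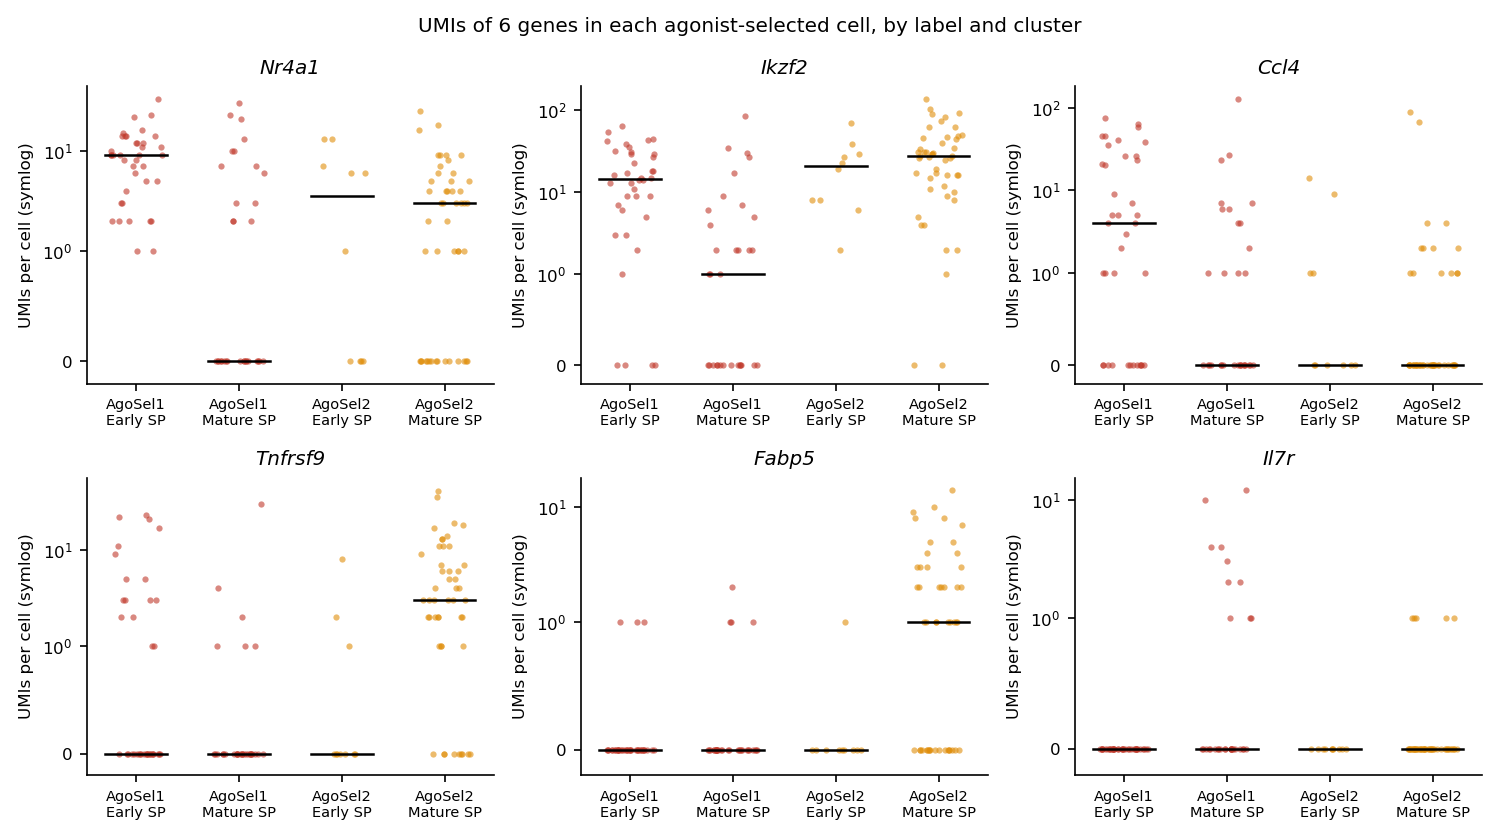
UMIs per cell (linear up to 1, then logarithmic) of 6 genes in the AgoSel1 and AgoSel2 cells of the Early SP and Mature SP clusters. Each point is 1 cell and bars are medians. Nr4a1 is present in all 38 Early SP cells of AgoSel1 and in 14 of its 32 Mature SP cells, whereas Il7r is found in Mature SP cells.

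Across 6867 genes, with every label reduced to 287914 UMIs, the profile of AgoSel1 correlated most with intCD4 (Pearson r = 0.906) and Immature CD4-2 (0.906), and AgoSel2 came 6th of 20 (0.895). AgoSel2 correlated most with Immature CD8-2 (0.896), then AgoSel1 (0.895). These are descriptions across genes, which are not independent, and the labels share 1 library and the genes common to all thymocytes, so the differences between leading values are too small to order them. The Immature CD8-2 label had 62 cells.

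In the spatial section, bins whose first label in the authors' decomposition was AgoSel1 or AgoSel2 made up 1.88% and 3.09% of 592087 labelled bins. They were more frequent in medulla than in cortex, by 3.71-fold (3.56 to 3.87) for AgoSel1 and 5.85-fold (5.68 to 6.02) for AgoSel2. In the medulla they made up 5.70% and 12.7% of bins, and 3.84% and 6.17% of those with a confident first label. Between the medullary regions named mEFA and mECA the ratio was 0.967 (0.902 to 1.04) for AgoSel1 and 0.878 (0.838 to 0.919) for AgoSel2, the latter turning to 1.21 among bins with a confident first label. Bins are small regions of 1 section, not cells, and neighbouring bins are not independent.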

How the data were processed

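Per the file headers, Cell Ranger 8.0.0 counted the droplet libraries, and mRatBN7.2 and Seurat 5.3.0 stand in the submitters' processing notes. The deposited matrix holds UMI counts per gene and cell (34034 features, 64440495 UMIs). Per cell, the authors deposited a mitochondrial percent, an initial cluster and a projected label, by a rule not given in the sources used here. For section bins they deposited decomposition weights, a fraction per type. How doublets were treated is not given in the sources used here, and none were removed here.

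UMIs were summed per label and divided by the label's total (CPM). Genes with 30 UMIs over both groups were compared. Named genes were members of 21 lists (261 genes, 257 with a feature) and the 15 genes of highest and lowest ratio with 30 UMIs and a UMI in 15% of cells of the higher group. Mitochondrial genes and genes known only by an identifier were left out of the ranking by ratio. Some listed genes are not reported here. The members and lists were chosen with earlier results of these data known. Intervals cover counting error only. Thinning drew 1000 UMIs per cell (seed 7). Code was tested on simulated data. Sums, ratios and intervals used pandas 2.3.3, SciPy 1.17.1 and NumPy 2.4.6, and edgeR 4.0.16 gave TMM factors only.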

Additional observations from a re-analysis of the deposited data

How the results depend on the processing

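Of the single-gene ratios recomputed under all alternatives, 5558 moved by less than their counting interval, 918 moved by more, and 6 were counted as turned in direction. Those 6 were Gimap1 against DP-sig in UMIs per cell (1.01), Cd200 and Hspa4l of AgoSel1 against AgoSel2 within Mature SP (0.785 and 0.907), and Cd8b, Rag1 and Themis within Early SP (0.819, 0.944 and 0.674). That count leaves out other ratios that crossed 1. Between AgoSel1 and AgoSel2, for instance, 11 of 13 NF-kB genes lay above 1 in CPM and 3 in UMIs per cell. Counts of genes at least 2-fold higher and lower varied with the minimum of UMIs, the depth and the scaling. Thinned to 1000 UMIs they were 101 and 310 against DP-sig, 87 and 153 against immature CD4, 125 and 59 against the Treg labels, and 52 and 30 for AgoSel1 against AgoSel2. With a minimum of 10 UMIs they were 843 and 873, 737 and 639, 1170 and 605, and 720 and 674 in the same order, and with 100 UMIs 126 and 219, 113 and 109, 177 and 98, and 106 and 55. TMM factors gave 318 lower against DP-sig and 390 higher against the Treg labels, and totals without mitochondrial, ribosomal protein and haemoglobin genes gave 311 lower against DP-sig. In UMIs per cell, an alternative chosen after seeing the data, the counts were 3078 and 34 against DP-sig, 847 and 104 against immature CD4, and 30 and 2192 for AgoSel1 against AgoSel2. Within Mature SP 404 genes were higher in AgoSel2, and within Early SP 169 were higher and 48 lower in AgoSel1. These cluster splits, the confident bins and leaving out a gene's richest cell were also chosen after seeing the data. In the section, medulla over cortex for AgoSel1 was 5.38 in bins given 1 type, 3.50 in deeper bins, 2.71 in segmented cell bins and 7.87 in confident bins, and for AgoSel2 8.43, 4.50, 3.09 and 9.89. The ratio of mEFA to mECA was 0.735 in bins given 1 type and 0.876 in cell bins for AgoSel1, and 0.757, 0.933 and, in confident bins, 1.21 for AgoSel2. The cause of these shifts was not tested. Initial clusters could not stand in for the label, since none is named AgoSel, and genes under 30 UMIs under an alternative have no value there. No paired analysis was possible because the labels compared came from 1 library. At 128 cells, genes under a few UMIs could not be compared.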
